A study of Mus musculus with 6 samples.

Results

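The enzymes that make, lengthen and desaturate fatty acids were examined in green fluorescent cells sorted from mouse bone marrow after transplantation of haematopoietic stem cells (HSCs), the marrow cells that give rise to all blood lineages. The 10 genes were chosen by name: Acly, Acaca, Fasn, Scd1, Scd2, Elovl1, Elovl5, Elovl6, Fads1 and Fads2. All 10 passed the filter on low counts, beside 12978 of 25033 listed genes in all. The donor HSCs had received a control RNA in 3 libraries and a miR-31-5p inhibitor in 3 libraries; miR-31-5p is a microRNA, a short RNA that represses transcripts matching its seed. All 6 libraries came from C57BL/6J bone marrow at an age of 6 months, and the labels call the cells haematopoietic stem cells without giving the number of animals behind a library. Nothing in the labels ties the replicate libraries to different recipients, and every p-value here therefore reflects the spread among these samples alone, which may be technical.

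Fatty acid synthesis starts from citrate, which ATP citrate lyase (Acly) cleaves to acetyl-CoA in the cytosol. Acetyl-CoA carboxylase alpha (Acaca) turns acetyl-CoA into malonyl-CoA, and fatty acid synthase (Fasn) builds palmitate from it. Elongases (Elovl genes) lengthen palmitate and dietary fatty acids, stearoyl-CoA desaturases (Scd genes) make monounsaturated fatty acids, and Fads1 and Fads2 desaturate polyunsaturated ones. Many of these genes are known targets of the sterol regulatory element-binding proteins SREBP1 and SREBP2, and several of the liver X receptors. Proliferating cells use the products for membranes.

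The microRNA that was inhibited is shown because its seed decides which transcripts it can pair with. The seed, bases 2 to 8, is in capitals (RefSeq, GRCm38.p6, minus strand, chr4:88910614-88910635).
miR-31-5p: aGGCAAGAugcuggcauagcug
The 7 letters that pair with this seed, TCTTGCC, were in the longest annotated 3′ UTR of 0 of the 10 genes, whose UTRs were 837 to 5008 bases long. They were in the 3′ UTR of 11.2% of 20531 genes, which had a median length of 962 bases. With 10 genes this count says only that these letters are not in these sequences.

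RefSeq promoters of 300 bases, from 250 before to 50 after a transcription start, were matched for 7 of the 10 genes, with 8 starts among them. For Fasn, Acaca and Elovl1 every window lay inside the gene span given below, so it belongs to a start within the gene. The outermost starts of these genes were not searched. The windows of Fasn, Elovl6 and Elovl5 are shown because Fasn had the smallest p-value of the 10 genes, and Elovl6 and Elovl5 had the largest and the smallest change among the well measured genes with a promoter in the table. Capitals mark the E-box CACGTG, which SREBP1 can bind, and the CCAAT box in either direction (ATTGG or CCAAT), bound by the SREBP partner NF-Y. They come from Fasn (minus strand, chr11:120824498-120824797), Elovl6 (plus strand, chr3:129532136-129532435) and Elovl5 (plus strand, chr9:77917115-77917414), all GRCm38.p6.
Fasn: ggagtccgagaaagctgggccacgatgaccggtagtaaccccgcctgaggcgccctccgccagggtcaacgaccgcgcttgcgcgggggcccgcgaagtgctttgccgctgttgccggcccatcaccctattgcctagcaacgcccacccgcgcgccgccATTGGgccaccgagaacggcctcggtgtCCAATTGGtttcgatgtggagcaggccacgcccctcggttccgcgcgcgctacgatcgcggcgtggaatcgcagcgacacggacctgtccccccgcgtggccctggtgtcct
Elovl6: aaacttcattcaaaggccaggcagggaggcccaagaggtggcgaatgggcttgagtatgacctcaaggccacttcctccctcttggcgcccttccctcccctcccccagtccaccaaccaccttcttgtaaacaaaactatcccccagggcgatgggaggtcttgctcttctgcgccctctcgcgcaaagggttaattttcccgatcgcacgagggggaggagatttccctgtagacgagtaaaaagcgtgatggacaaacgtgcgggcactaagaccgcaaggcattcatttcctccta
Elovl5: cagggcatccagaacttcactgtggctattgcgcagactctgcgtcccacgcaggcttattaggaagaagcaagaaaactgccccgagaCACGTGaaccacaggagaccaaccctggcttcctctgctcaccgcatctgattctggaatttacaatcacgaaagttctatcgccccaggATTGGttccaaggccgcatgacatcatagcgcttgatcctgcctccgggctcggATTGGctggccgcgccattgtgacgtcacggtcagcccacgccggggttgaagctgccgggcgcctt
Fasn held 3 CCAAT boxes, which begin 90, 62 and 59 bases before the start, the last 2 of them overlapping on opposite strands. Elovl5 held CCAAT boxes at 71 and 17 bases and an E-box at 161 bases before the start. None of these motifs was in the Elovl6 window. Over both strands, a CCAAT box was in the windows of 4 of the 7 genes (Acly, Elovl1, Elovl5 and Fasn) and in 37.4% of all 32851 promoters, and an E-box was in 1 gene and in 7.15% of promoters. A sterol regulatory element core, TCACNCCAC, was in none of these genes' windows and in 1.24% of promoters, and a GC box, GGGCGG, in those of Acly, Elovl1 and Fads2 and in 35.7%. A match is a description of the letters and not evidence of binding.

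Total counts were 16873188 to 21245861 per library. Replicates within a group were not duplicates of each other, since their counts over genes gave chi-square values of 3.10 to 17.7 for each degree of freedom, and each was kept. Control library 1 stood apart from controls 2 and 3 on the second principal component, which held 9.48% of the variance, while the first held 70.8% and separated the groups. Counts of Rn45s, the precursor of ribosomal RNA, reached 20039 in control 1, 3667 in control 2 and 61656 in control 3, beside 1784 to 3145 for the inhibitor group, so they were higher in the control group and highest in controls 1 and 3. The genes were therefore also tested without controls 1 and 3 together, an alternative chosen once the data had been seen. There 7 of the 10 still fell, and Scd1 lost its call. Of 10 markers of HSCs fixed for this check, Kit and Cd34 were at 401.9 and 362.8 CPM (counts scaled to the TMM-adjusted library total) in the control group, Procr, Hlf and Mecom were at 1.06, 6.95 and 0.64 CPM there, and Hoxb5 had no count in any library. The myeloid progenitor gene Mpo was at 5202 CPM. In the inhibitor group Procr was at 7.55, Hlf at 3.65 and Mecom at 0.38 CPM. Mecom had 4 to 15 counts per library and was not called (edgeR adjusted p = 0.263). Slamf1 was at 5.22 CPM in the control and 16.9 CPM in the inhibitor group, and Ctnnal1 at 7.64 and 18.1 CPM. Ly6a was at 25.03 and 18.9 CPM and Fgd5 at 0.10 and 0.41 CPM. HSC markers other than Kit and Cd34 thus had group means of 25.03 CPM or less, beside abundant Kit, Cd34 and Mpo. The libraries are called by their labels. In such bulk libraries fewer cells of a type and less RNA per cell cannot be told apart.

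The comparison asked which of these enzymes differ in level between cells that descend from inhibitor-treated and from control-treated HSCs. Transcripts of fatty acid synthesis were lower in the inhibitor group: 8 of the 10 genes fell, 0 rose, and Elovl5 and Fads1 did not pass the threshold, an adjusted p of 0.05 (edgeR). The 7 of them with at least 863 counts in every library, Acly, Acaca, Fasn, Scd2, Elovl1, Elovl6 and Fads2, fell by 18.7 to 40.1% of their control means. Over all tested genes, 20.1% fell and 20.4% rose at the same threshold (edgeR quasi-likelihood, Benjamini-Hochberg over all tested genes). In 9 of the 10 genes every inhibitor library lay below every control library, against 26.5% of all tested genes, and in 0 of them above, against 25.9%. The median log2 change of the 10 genes was -0.47, beside -0.01 over all tested genes. The counts and medians describe these genes and test nothing about them as a set.

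**Figure D1:**
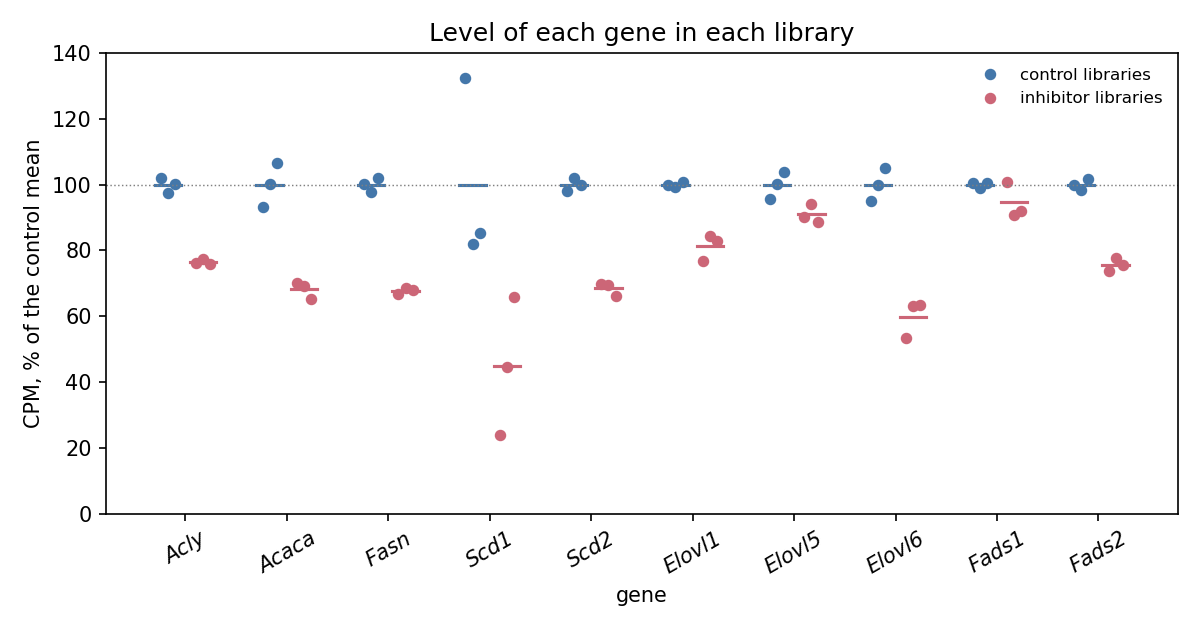
Level of each of the 10 genes in each library, as a percentage of the mean of the 3 control libraries (points: libraries; horizontal lines: group means; vertical axis: CPM relative to the control mean). The inhibitor libraries lie below all control libraries for every gene but Fads1, and the points of Scd1 are spread widely in both groups.

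The 3 enzymes that lead from citrate to palmitate fell together. Acly (chromosome 11, 100476352 to 100528000, GRCm38) was at 390.2, 372.8 and 383.1 CPM in control libraries 1 to 3 and at 291.5, 295.6 and 289.5 CPM in inhibitor libraries 1 to 3. The groups did not overlap, and the inhibitor libraries lay within 7 CPM of each other. The log2 change was -0.39 ± 0.05 (± SE, n = 3 libraries per group), and the edgeR quasi-likelihood fit gave it a Benjamini-Hochberg adjusted p of 2.82e-05, as it did the adjusted p-values that follow.

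Acaca, the rate-limiting carboxylase (chromosome 11, 84129635 to 84401651), was at 130.6, 140.2 and 149.3 CPM in the control libraries and 98.2, 96.9 and 91.2 CPM in the inhibitor libraries. Its controls were the more spread, with control library 1 lowest, and the groups did not overlap. The log2 change was -0.55 ± 0.06 (edgeR adjusted p = 4.62e-06). Of its 9464 words of 50 bases, 4974 also occur in the processed pseudogene Gm5182, which was not analysed here, so how reads of this stretch were assigned is uncertain.

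Fasn, the synthase itself (chromosome 11, 120805958 to 120825166), had 564.6, 550.7 and 573.5 CPM in the controls and 375.5, 386.6 and 382.6 CPM in the inhibitor libraries. The coefficient of variation was 2.04% among controls and 1.48% among inhibitor libraries, against a mean difference of -32.2%. Its log2 change of -0.56 ± 0.05 had the smallest p-value of the 10 genes (edgeR adjusted p = 5.18e-07). The log2 ratio of Acaca to Fasn counts was similar in both groups. It was -2.01 ± 0.09 in the controls and -1.999 ± 0.07 in the inhibitor libraries (mean ± SD, n = 3 each). The difference of 0.01 had an exact two-sided permutation p of 0.9, adjusted over 4 such pairs 0.9. With 3 libraries against 3 no p below 0.1 is possible, so the ratios of gene pairs given here could not have passed 0.05. A large p thus does not show that a ratio was unchanged. In the ratio of Acaca to Fasn the difference was -0.04 without control library 1 and -0.02 without inhibitor library 1.

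Of the stearoyl-CoA desaturase transcripts, Scd2 was abundant and Scd1 was close to the limit of counting. Scd2 (chromosome 19, 44293676 to 44306864) is the isoform known from brain and from lipid synthesis in development, and it was at 575.7, 599.6 and 585.7 CPM in the controls and 410.4, 408.3 and 388.8 CPM in the inhibitor libraries. The groups did not overlap, and the log2 change was -0.54 ± 0.05 (edgeR adjusted p = 8.90e-07). Scd1, the isoform of liver and fat (chromosome 19, 44394450 to 44407709), had 45, 28 and 31 counts in the controls and 8, 13 and 19 counts in the inhibitor libraries, or 2.26, 1.40 and 1.46 CPM and 0.41, 0.76 and 1.12 CPM.

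The Scd1 groups did not overlap, but inhibitor library 3 lay nearer to the lowest control than to inhibitor library 1. Its log2 change was -1.17 ± 0.38 (edgeR adjusted p = 0.0217). The call did not hold without 1 of several libraries: the log2 change was -0.92 without control library 1 (edgeR adjusted p = 0.0826), -0.85 without inhibitor library 1 (edgeR adjusted p = 0.103) and -1.18 without inhibitor library 2 (edgeR adjusted p = 0.0609). Without control libraries 1 and 3 together it was -0.89 (edgeR adjusted p = 0.275); over all its alternatives the adjusted p ran from 0.0088 to 0.275. Scd1 and Scd2 transcripts share 145 words of 50 bases, which are 145 of 4783 in Scd1, and 223 of its words occur in some other gene, Scd3 and Scd4 among them, so some of its counts may belong to these genes or the reverse. The log2 ratio of Scd1 to Scd2 counts was -8.44 ± 0.40 in the controls and -9.10 ± 0.74 in the inhibitor libraries, and these overlapped (exact two-sided permutation p = 0.3, adjusted over 4 pairs 0.4).

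Among the elongases the size of the fall differed. Elovl6, which lengthens palmitate to stearate (chromosome 3, 129532386 to 129638495), was at 78.8, 83.0 and 87.3 CPM in the controls and 44.3, 52.4 and 52.6 CPM in the inhibitor libraries. Inhibitor library 1 was the lowest, and no inhibitor library came near a control. The log2 change of -0.74 ± 0.08 (edgeR adjusted p = 1.41e-06) was the deepest among the 9 genes with at least 863 counts in every library. Of its 5890 words of 50 bases, 259 occur in other genes, mostly Gm11295. Elovl1, which makes saturated very long chain fatty acids for sphingolipids (chromosome 4, 118426874 to 118432953), was at 116.9, 116.4 and 118.1 CPM in the controls and 89.9, 98.8 and 96.9 CPM in the inhibitor libraries. The groups did not overlap, and the log2 change was -0.30 ± 0.06 (edgeR adjusted p = 0.000749).

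Elovl5, which lengthens polyunsaturated fatty acids (chromosome 9, 77917365 to 77984519), was at 160.3, 168.1 and 174.2 CPM in the controls and at 151.1, 157.8 and 148.5 CPM in the inhibitor libraries. Inhibitor library 2 lay less than 3 CPM under control library 1. The log2 change was -0.14 ± 0.06, with an unadjusted 95% interval of -0.26 to -0.02 (edgeR adjusted p = 0.0646). It passed without control library 1, at -0.17 (edgeR adjusted p = 0.00318; over all its alternatives 0.00318 to 0.252). The log2 ratio of Elovl5 to Elovl6 counts was 1.02, 1.02 and 1.00 in the controls and 1.77, 1.59 and 1.496 in the inhibitor libraries. All 3 inhibitor libraries lay above all controls, by a mean of 0.61, with the smallest exact two-sided permutation p that 3 against 3 allows (0.1, adjusted over 4 pairs 0.2).

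The polyunsaturated desaturases differed likewise. Fads2, which makes the initial desaturation of polyunsaturated fatty acids (chromosome 19, 10062765 to 10101503), was at 199.7, 196.5 and 203.1 CPM in the controls and at 147.4, 155.5 and 150.9 CPM in the inhibitor libraries. The groups did not overlap, and the log2 change was -0.40 ± 0.05 (edgeR adjusted p = 2.34e-05). Fads1, the desaturase that acts later on the same fatty acids (chromosome 19, 10182877 to 10196874), was at 130.1, 127.8 and 130.0 CPM in the controls and at 130.5, 117.3 and 119.1 CPM in the inhibitor libraries.

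Inhibitor library 1 was the highest of all 6 libraries in Fads1, so the groups overlapped. The log2 change of Fads1 was -0.08 ± 0.06, with an unadjusted 95% interval of -0.20 to 0.04 (edgeR adjusted p = 0.29), so a fall as large as that of Fads2 lay outside the interval. The log2 ratio of Fads1 to Fads2 counts was -0.62, -0.62 and -0.64 in the controls and -0.18, -0.41 and -0.34 in the inhibitor libraries. It was higher in all 3 inhibitor libraries, by a mean of 0.32 (exact two-sided permutation p = 0.1, adjusted over 4 pairs 0.2).

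**Figure D2:**
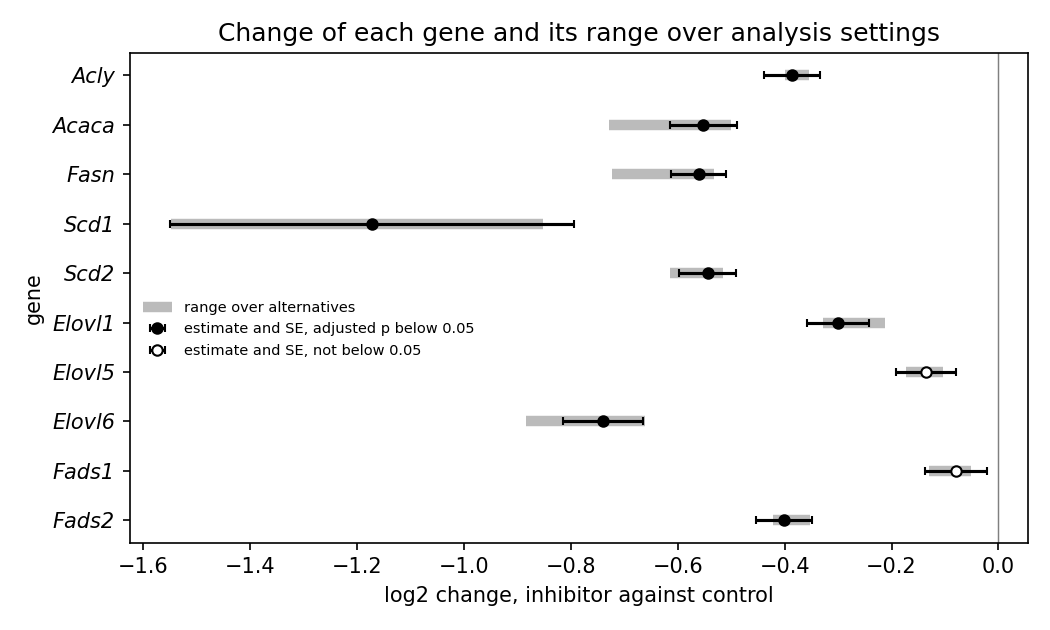
Log2 change of each gene, inhibitor against control (points with SE bars; filled points passed an adjusted p of 0.05 in edgeR's test, open points did not), over its range across 16 alternative settings (grey bars). All 10 estimates and ranges lie below 0, Elovl6 is the lowest of the well measured genes at -0.74, and Elovl5 and Fads1 are nearest to 0.

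**Figure D3:**
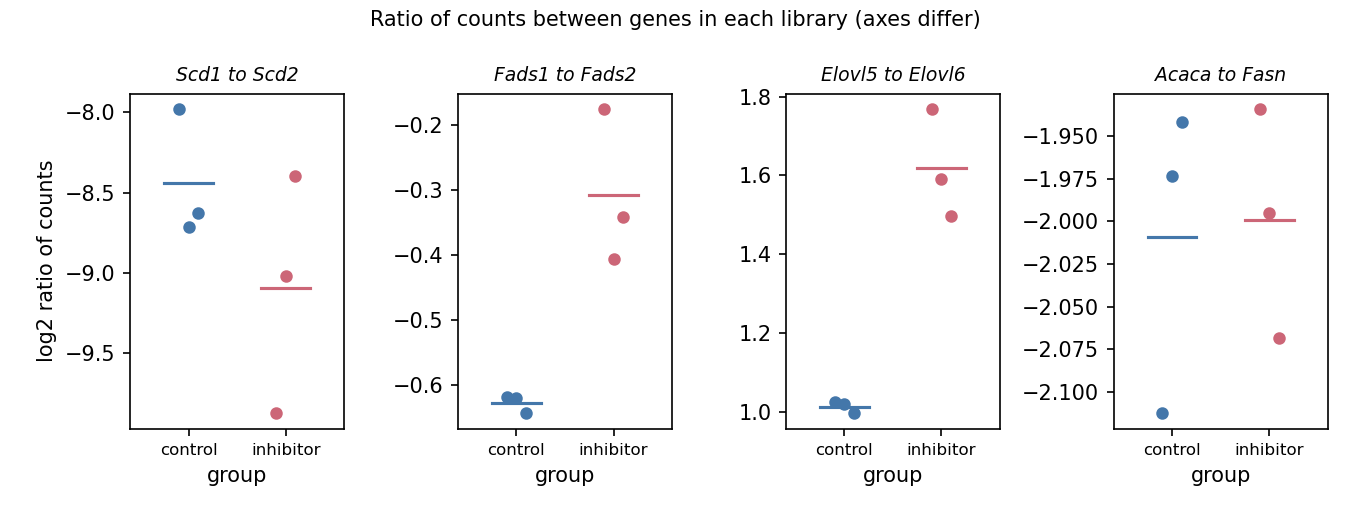
Log2 ratio of counts between 4 pairs of genes in each library (points; lines are group means; each panel has its own axis). The ratios of Fads1 to Fads2 and Elovl5 to Elovl6 lie higher in all 3 inhibitor libraries, and the groups overlap for Acaca to Fasn and Scd1 to Scd2.

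Levels of different genes were compared per kilobase of the longest transcript. In the control group Scd2 was highest, at 107.7 ± 2.197 CPM per kilobase (mean ± SD, n = 3), followed by Acly at 86.3 ± 1.98, Elovl1 at 72.4 ± 0.53 and Fads2 at 68.7 ± 1.14. Elovl5 at 60.2 ± 2.50 and Fasn at 56.6 ± 1.16 CPM per kilobase overlapped. Fads1 was at 37.4 ± 0.37, and Acaca at 15.5 ± 1.04 and Elovl6 at 14.0 ± 0.72 CPM per kilobase overlapped again. Scd1 stood far below the others, at 0.35 ± 0.10 CPM per kilobase.

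The order in the inhibitor group differed at Elovl5 and Fads2. Scd2 remained at the top with 73.8 ± 2.18 CPM per kilobase, before Acly at 66.0 ± 0.70, and Elovl1 at 58.8 ± 2.91 overlapped with Elovl5 at 54.8 ± 1.71. Elovl5 now had the higher mean than Fads2, at 52.04 ± 1.40, but their libraries overlapped. Fasn was at 38.4 ± 0.57 and Fads1 at 35.4 ± 2.07 CPM per kilobase, close to each other. Acaca at 10.6 ± 0.41 and Elovl6 at 8.37 ± 0.79 CPM per kilobase no longer overlapped.

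**Figure D4:**
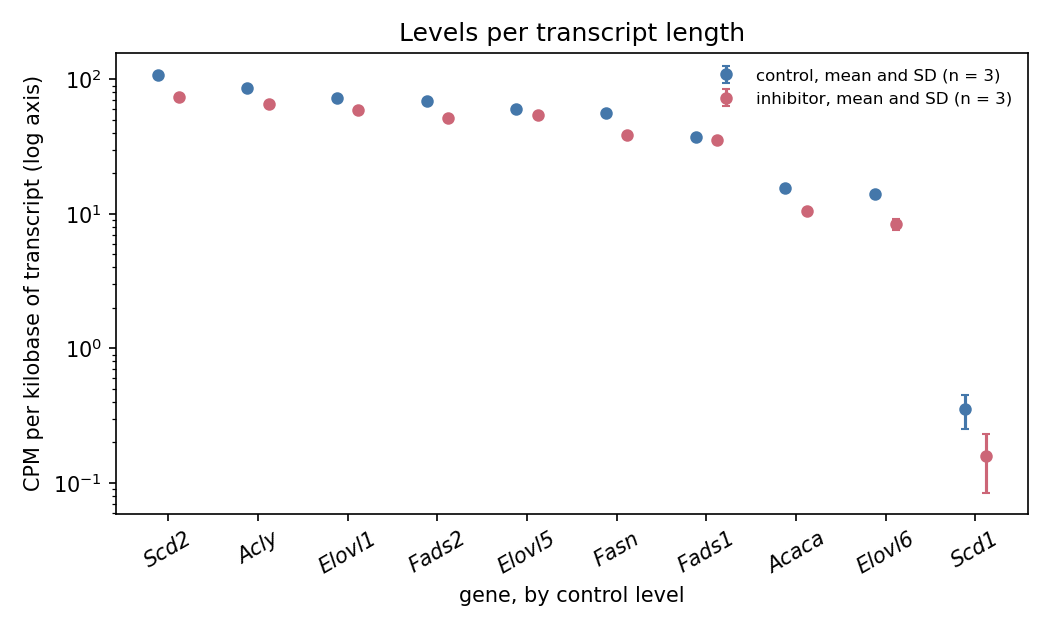
Levels per kilobase of the longest transcript on a log axis, ordered by the control mean (points: means of 3 libraries; bars: SD). Scd2 is the highest gene in both groups and Scd1 the lowest by over a factor of 10, and the distance between the groups is smallest at Fads1 and Elovl5.

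Regulators of the pathway were found on both sides, in shares somewhat above those of all tested genes (20.1% lower, 20.4% higher). The difference in shares was not tested. Of 19 tested, 5 fell, 6 rose and 8 did not pass (median log2 change -0.01). Srebf2, the SREBP mainly of sterol synthesis, went from 355.6 ± 10.1 to 218.7 ± 9.98 CPM (mean ± SD, n = 3), a log2 change of -0.70 ± 0.06 (edgeR adjusted p = 8.75e-08). Srebf1, whose products drive fatty acid synthesis, was at 133.4, 135.2 and 133.9 CPM in the controls and at 120.1, 115.0 and 108.4 CPM in the inhibitor libraries, a log2 change of -0.23 ± 0.06 (edgeR adjusted p = 0.0047). The sterol-responsive gene Insig1, whose product holds SREBPs back in the endoplasmic reticulum, fell by 1.36 on the log2 scale.

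Nr1h3, the liver X receptor alpha gene, was low and rose from 3.15 ± 0.48 to 4.91 ± 0.09 CPM, a log2 change of 0.64 ± 0.18 (edgeR adjusted p = 0.0113). Trib3, a pseudokinase known to bring about the breakdown of acetyl-CoA carboxylase, was at 2.41, 1.15 and 0.94 CPM in the controls and at 2.98, 4.202 and 3.96 CPM in the inhibitor libraries, a log2 change of 1.31 ± 0.31. Prkaa1, a catalytic subunit of AMP-activated kinase, which phosphorylates acetyl-CoA carboxylase, rose by 0.27 ± 0.07, and Mbtps2, a protease that releases SREBPs, by 0.32 ± 0.08. Without control libraries 1 and 3 neither of these last genes passed, at 0.16 for Prkaa1 (edgeR adjusted p = 0.108) and 0.19 for Mbtps2 (edgeR adjusted p = 0.0932).

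Other genes of synthesis and elongation did not share 1 direction. Their shares too were somewhat above those of all tested genes (20.1% lower, 20.4% higher), which was not tested. Of 19 tested, 5 fell, 6 rose and 8 missed the threshold, and the median was 0.00. Aacs, which makes acetoacetyl-CoA for lipid synthesis, was at 89.7, 79.9 and 76.1 CPM in the controls and at 45.9, 44.0 and 44.8 CPM in the inhibitor libraries, a log2 change of -0.87 ± 0.07. The mitochondrial acetyl-CoA synthetase gene Acss1 (-0.52 ± 0.09) and Mid1ip1, an activator of acetyl-CoA carboxylase (-0.46 ± 0.08), also fell. Me1, the malic enzyme that supplies NADPH, was at 2.26, 3.15 and 2.40 CPM in the controls and at 8.52, 9.51 and 9.69 CPM in the inhibitor libraries, a log2 change of 1.83 ± 0.17 (edgeR adjusted p = 5.45e-07).

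Acss2, which makes cytosolic acetyl-CoA from acetate and so supplies the same pool as Acly, was at 10.6, 13.04 and 10.9 CPM in the controls and at 19.7, 17.04 and 17.8 CPM in the inhibitor libraries. It rose by 0.66 ± 0.12 (edgeR adjusted p = 0.000344), while Acly fell. The elongase gene Elovl7 rose by 0.70 ± 0.12 and Fads3, a desaturase next to Fads1 and Fads2 in the genome, by 0.46 ± 0.08. Acacb, the carboxylase isoform at mitochondria, had only 1.59 ± 0.19 CPM in the controls and 1.99 ± 0.44 CPM in the inhibitor libraries and did not pass (log2 change 0.32 ± 0.27).

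Fatty acid assembly and oxidation genes had medians near 0, and most did not pass, as over all tested genes. Of 20 triglyceride and phospholipid assembly genes tested, 3 fell, 2 rose and 15 did not pass (median -0.05), and the lipid droplet gene Plin3 (-0.44 ± 0.09) and Agpat2 (-0.47 ± 0.11) fell while Agpat3 rose (0.49 ± 0.11). Of 23 oxidation genes tested, 5 fell, 3 rose and 15 did not pass (median 0.02). Cpt1a, the carnitine palmitoyltransferase that admits fatty acids to mitochondria, rose by 0.21 ± 0.05, and Etfa, an electron carrier of the pathway, fell by 0.26 on the log2 scale. Other named genes of both lists were less firm: Agpat1 (0.20 ± 0.07) and Ehhadh (1.27 ± 0.43) rose, and Dgat2 (-0.30 ± 0.12), Echs1 (-0.21 ± 0.06) and Acaa2 (-0.25 ± 0.08) fell, but each lost its call without 1 library. Agpat1 did so without control library 2 (0.16) or 3 (0.20) or inhibitor library 1 (0.16) or 3 (0.20). Ehhadh did so without control library 2 (1.03) or 3 (1.26) or inhibitor library 1 (0.88) or 2 (1.36), and Echs1 (-0.21 and -0.17) and Acaa2 (-0.24 and -0.23) without inhibitor library 2 or 3. After the GC and length correction Acaa2 was at -0.14 and did not pass either. Dgat2 passed only narrowly (edgeR adjusted p = 0.0498) and lost its call without any of 5 libraries, all but control library 2 (-0.32 to -0.25), and also with DESeq2, limma-voom, RLE size factors and other filters (each -0.30).

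Acyl-CoA synthetases, which activate fatty acids for all of these routes, were mostly not past the threshold: of 8 tested, 2 fell (Acsl3, -0.32 ± 0.07, and Acsl5, -0.19 ± 0.05, or -0.14 and not past the threshold without control libraries 1 and 3), 1 rose (Slc27a1, 0.56 ± 0.08) and 5 did not pass. Of the 5 tested genes of mitochondrial fatty acid synthesis, 1 fell (Ndufab1, -0.29 ± 0.07, or -0.11 and not past the threshold once GC content and length were corrected for) and 4 did not pass.

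Genes of fatty acid and lipoprotein uptake moved in both directions. Of 8 tested, 4 rose, 2 fell and 2 did not pass (median 0.62). Cd36, a fatty acid receptor, was at 27.5, 31.9 and 32.01 CPM in the controls and at 104.6, 100.5 and 113.0 CPM in the inhibitor libraries, a log2 change of 1.80 ± 0.08 (edgeR adjusted p = 5.96e-11). Lpl, the lipoprotein lipase that frees fatty acids from triglyceride, was at 198.5, 231.9 and 221.2 CPM in the controls and at 546.5, 560.4 and 549.3 CPM in the inhibitor libraries, a log2 change of 1.35 ± 0.06 (edgeR adjusted p = 1.61e-10). The groups did not overlap in Cd36 or Lpl. Vldlr, a lipoprotein receptor, rose by 1.32 ± 0.07 and Dbi, an acyl-CoA binding protein, fell by 0.48 on the log2 scale.

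For comparison, all 19 mevalonate and sterol enzymes fell, with a median of -0.99 and a range from -1.26 for Hmgcs1 to -0.44 for Ebp, a group already known from earlier results of these data to fall. Cyp51 (-1.24) and Msmo1 (-1.16) had the next smallest p-values after Hmgcs1. Elovl6, at -0.74, lay within that range, as did Acaca, Fasn, Scd1 and Scd2, and the changes of Acly, Fads2, Elovl1, Elovl5 and Fads1 were smaller than the smallest of it. Among the genes whose log2 CPM followed Fasn most closely over the 6 libraries were, by Pearson r, Kcnj2 (0.999), Susd1 (0.998), Tmppe (0.998) and Cdca7 (0.998). These correlations are a description of 6 libraries that share the split into 2 groups, and 737 of 12823 genes had an r over 0.95.

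**Figure D5:**
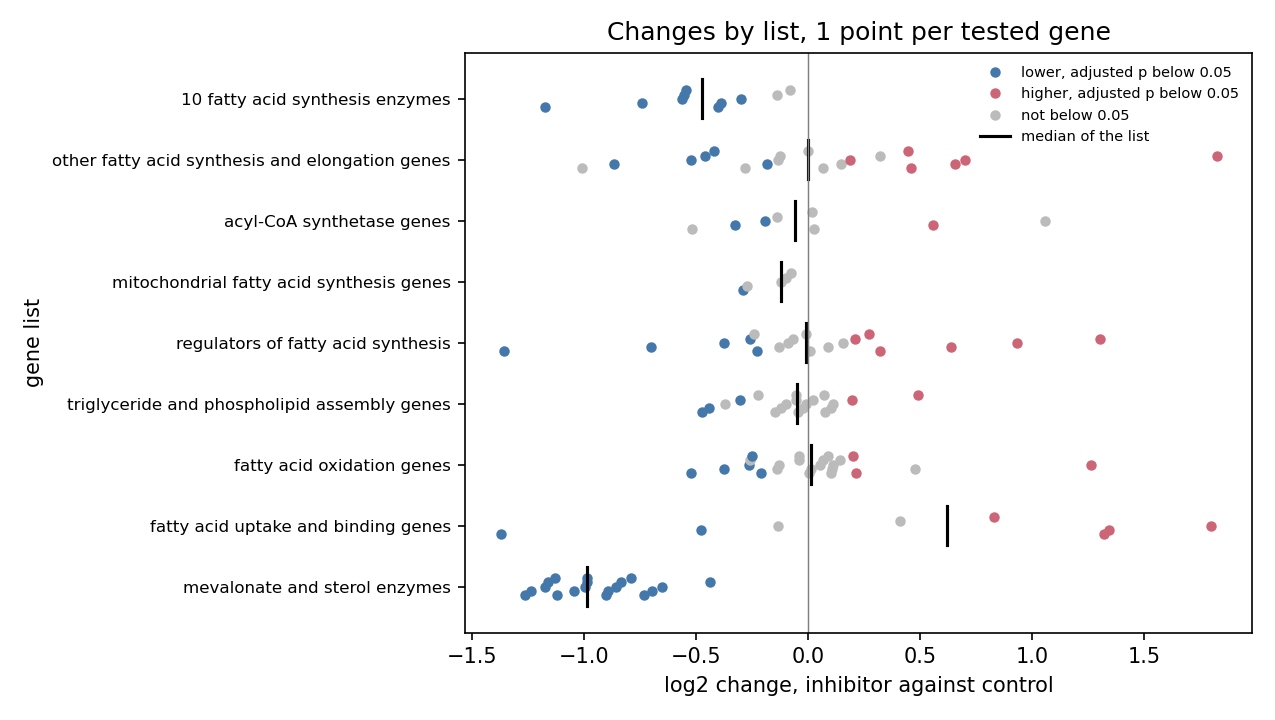
Log2 change of each tested gene, inhibitor against control, by list (1 point per gene, coloured by call in edgeR's test; black lines are list medians). The 10 enzymes lie left of 0 with a median of -0.47 and the sterol enzymes further left at -0.99, while the lists of regulators, assembly and oxidation genes lie on both sides of 0.

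Markers of other cell types also moved between the groups. All 6 megakaryocyte markers rose, and their summed level was 1337 to 1562 CPM in the controls and 3028 to 3147 CPM in the inhibitor libraries. Of 8 monocyte and macrophage markers 2 fell, 2 rose and 4 did not pass, and their sum was 3581 to 3710 CPM against 2232 to 2288 CPM, with Lyz2 at 2243 and 1103 CPM. Of 9 myeloid progenitor and neutrophil markers 4 fell (Mpo, Elane, Prtn3 and Ctsg) and 5 rose (Camp, Ltf, Ngp, S100a8 and S100a9). Their sum was 6437 to 7295 CPM against 5720 to 5868 CPM, most of it Mpo (group means 5202 and 4315 CPM). Of 5 plasmacytoid dendritic cell markers 4 fell, with a sum of 427.7 to 516.7 CPM against 348.7 to 353.2 CPM. Of 8 tested HSC markers 2 fell (Hlf and Ly6a) and 3 rose (Procr, Slamf1 and Ctnnal1). The sum over all 10 listed was 794.2 to 832.9 CPM against 839.3 to 877.4 CPM. Most of that sum was Kit (group means 401.9 and 406.2 CPM) and Cd34 (362.8 and 387.6 CPM), and neither passed the threshold. Of 4 tested erythroid markers 0 fell and 3 rose, with a sum over all 7 listed of 5.74 to 7.18 CPM against 12.3 to 15.1 CPM. Of 6 mast cell and basophil markers 1 fell and 2 rose, with a sum of 1161 to 1178 CPM against 1335 to 1417 CPM. The B cell markers tested, Cd79b and Pax5, both fell, and the sum over all 7 listed was 17.3 to 19.03 CPM against 10.1 to 10.8 CPM. Nkg7, the 1 tested T and NK cell marker, fell, and the sum over all 6 listed was 22.3 to 25.3 CPM against 15.4 to 18.2 CPM. Of 2 tested stromal and endothelial markers 1 rose, with a sum over all 6 listed of 120.7 to 132.2 CPM against 146.05 to 157.2 CPM. Nearly all of that sum was Pecam1 (group means 122.3 and 145.4 CPM), and Kdr did not pass. The part of these markers in the changes of the fatty acid genes was not tested. Of 8 adipocyte markers, Lep, Plin1, Cidec and Cidea had no count in any library, Adipoq was at 0.03 CPM in the controls and at 0 in the inhibitor libraries, and the summed level was 25.1 to 29.8 CPM against 22.5 to 27.8 CPM, nearly all of it Lipe.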

How the data were processed

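RNA from sorted GFP+ cells was made into mRNA libraries and sequenced. The authors deposited read counts per RefSeq gene symbol, not normalised, and RPKM values, counts scaled to transcript length and library total, per the file headers. The submitters' processing notes name the build mm10 and the tool bcl2fastq 2.20. The aligner, the counting tool and strand use were not given in the sources used here. Overlapping and antisense genes thus cannot be told apart. RPKM was used only as a check of the counts.

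Counts of all 25033 genes were filtered with filterByExpr (minimum count 10, minimum total 15), scaled by TMM and tested with the robust quasi-likelihood test of edgeR 4.0.16 (R 4.3.3), with Benjamini-Hochberg adjustment over 12978 genes and a threshold of 0.05. CPM values are TMM-scaled. Ratios of gene pairs used counts plus 0.5 and an exact permutation test. At these totals 3 counts are 0.141 to 0.178 CPM. Such limits cover counting error only. The procedure was tested on simulated data.

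The genes and lists were chosen with earlier results of these data known. Named besides the 10 genes were up to 3 genes higher and 3 lower of each list, by smallest p-value, and Srebf1, Srebf2, Nr1h3, Acacb and Acss2. Some genes that this rule names are not reported here. Markers were named by highest level or because they define a cell type, the latter after their values were seen, as were Ebp and the genes that share sequence. Motifs and 50-base words were searched with Python 3.11.15 in RefSeq promoters (GRCm38.p6) and GENCODE M21 transcripts, the same assembly as mm10. DESeq2 1.42.0 and limma-voom (limma 3.58.1) were among the alternatives.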

Additional observations from a re-analysis of the deposited data

How the results depend on the processing

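Each of the 10 genes was recomputed under 16 alternatives. No gene changed direction. Acaca, Fasn, Scd2 and Elovl6 stayed past the threshold in all 16, with log2 changes of -0.73 to -0.50, -0.72 to -0.53, -0.61 to -0.52 and -0.88 to -0.66. Fads1 passed in none. Elovl5 also passed at an adjusted p of 0.1 and after the GC and length correction (-0.17). Requiring a log2 change of at least 0.5 left 5 of the 10 genes (Acly, Elovl1 and Fads2 did not reach it), 658 lower and 1367 higher genes over all tested, and 24 lower and 12 higher genes over the pathway lists, where 42 and 22 were called. RLE size factors, other filters, DESeq2 and limma-voom each gave 8 lower and 0 higher genes of the 10, the GC and length correction 9 and leaving out control libraries 1 and 3 together 7. The last pair of settings was chosen after seeing the data. Leaving out each library gave 7 to 8 lower genes of the 10. The difference in the Acaca to Fasn ratio ranged from -0.041 to 0.045 when each library was left out. Same-numbered libraries of both groups had correlations of their deviations of 0.06, 0.01 and 0.04, so no deviation shared by number was seen. The labels do not say whether the numbers pair libraries, and these values cannot decide it. With the replicate number as a block, 2842 genes fell and 2831 rose, with the same count of 8 among the 10 genes. The cause of these differences between settings was not tested. Depth limits Scd1 most, with 8 to 45 counts per library.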
